A study of Homo sapiens with 6 samples.

Results

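The clustered histone genes were taken from the gene count table as the protein-coding genes whose symbols begin with HIST1H to HIST4H, which gave 71 of the 58735 genes listed. By subtype they comprised 6 genes for H1, 17 for H2A, 18 for H2B, 15 for H3 and 15 for H4. By cluster, 55 belonged to HIST1 on chromosome 6 (25726132 to 27893843, GRCh38), 12 to HIST2 on chromosome 1 (143905556 to 149887916), 3 to HIST3 on chromosome 1 (228424845 to 228460470) and 1 to HIST4 on chromosome 12 (14767999 to 14771131).

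RNA was sequenced from 3 libraries of cells labelled as CNOT7 knockdown and 3 labelled as CNOT7 control, all from untreated cells of a human colorectal cancer line that the labels call SW480. The knockdown was made with short hairpin RNAs delivered by lentivirus, and CNOT7 is a deadenylase of the CCR4-NOT complex, which shortens the poly(A) tails of mRNAs. The labels name SW480, whereas the study's text names HCT116 for its RNA sequencing, and which hairpin each library carried, and whether the cells were a pool or a clone, are not given in the sources used here. Nothing states that the 3 libraries of a group came from separate cultures, so the p-values below measure the spread between these libraries, which may be technical.

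Histones package DNA into nucleosomes: H2A, H2B, H3 and H4 form the core around which DNA is wrapped, and H1 binds the linker between cores. The clustered genes lack introns in their canonical form, are transcribed mostly during DNA replication, and give mRNAs that end in a conserved stem-loop rather than in a poly(A) tail. Some of them can also give longer, polyadenylated transcripts, and the variant histone genes outside the clusters give ordinary polyadenylated mRNAs throughout the cell cycle.

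The stem-loop is the feature that sets these mRNAs apart, so its forms are shown here. It was searched in the GENCODE 29 transcripts of the 71 genes as 16 bases with 6 paired positions on each side of a 4-base loop. The search also required GG at the start and TTT at the start of the loop, so all forms found share these letters by design. It lay within 100 bases after the last coding base, taken over all transcripts of a gene, in 30 gene models. The model of HIST1H2BN, counted here, extends past a neighbouring H2A gene, as described below. The distance between the last coding base and the stem-loop was 25 to 70 bases, with the stop codon counted in it. The stem is in capitals and the loop in lower case.
Form in 16 genes of H2A, H2B and H3, among them HIST1H2AC, HIST2H2BE and HIST3H2A: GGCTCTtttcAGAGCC
Form in 5 genes of H2B and H3, among them HIST1H2BC and HIST1H2BD: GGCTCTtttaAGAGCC
Form in 5 genes of H4, among them HIST1H4H and HIST4H4: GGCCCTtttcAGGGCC
Form in 3 genes of H4, among them HIST1H4I: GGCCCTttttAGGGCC
Form in HIST1H2AG alone: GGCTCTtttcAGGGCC
In HIST1H2AC the stem-loop lay at chr6:26124669-26124684 on the forward strand, and in HIST3H2A at chr1:228457369-228457384 on the reverse strand. The models of 33 members held little more than the coding sequence, with HIST1H1C and HIST1H2BK among them, so reads from a 3′ end beyond the stop codon of these genes were not counted for them. Of these 33 members, 3 passed the filter on low counts described below.

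The proximal promoters of the 5 members with the highest level per kilobase, and of HIST1H2BJ, are shown because the former carry most of the counts and the latter enters a comparison within a gene pair below. Each run is the 120 bases before the start of transcription in RefSeq (GRCh38.p14), 5′ to 3′ on the strand of the gene. Capitals mark the octamer ATTTGCAT, the binding motif of POU2F1, the CCAAT box CCAAT and the TATA box TATAAA, each found on either strand.
HIST1H2BK, chr6:27146859-27146978, reverse strand: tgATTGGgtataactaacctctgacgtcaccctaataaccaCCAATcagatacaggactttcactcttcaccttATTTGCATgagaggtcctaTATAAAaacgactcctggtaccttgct
HIST1H2BJ, chr6:27132796-27132915, reverse strand: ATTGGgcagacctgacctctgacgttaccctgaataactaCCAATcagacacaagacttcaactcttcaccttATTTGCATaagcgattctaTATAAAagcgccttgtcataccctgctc
HIST1H1C, chr6:26056471-26056590, reverse strand: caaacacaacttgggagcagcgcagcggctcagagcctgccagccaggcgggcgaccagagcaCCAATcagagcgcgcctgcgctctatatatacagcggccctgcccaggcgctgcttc
HIST1H4I, chr6:27139162-27139281, forward strand: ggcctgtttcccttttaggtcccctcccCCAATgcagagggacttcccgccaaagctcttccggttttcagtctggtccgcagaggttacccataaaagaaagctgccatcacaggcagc
HIST2H2BE, chr1:149886683-149886802, reverse strand: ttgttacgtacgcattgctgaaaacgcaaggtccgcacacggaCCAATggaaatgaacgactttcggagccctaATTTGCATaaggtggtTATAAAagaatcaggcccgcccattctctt
HIST3H2A, chr1:228457874-228457993, reverse strand: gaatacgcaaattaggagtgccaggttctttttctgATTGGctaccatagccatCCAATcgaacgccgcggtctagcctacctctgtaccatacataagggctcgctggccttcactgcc
HIST1H2BK, HIST1H2BJ and HIST2H2BE, all H2B genes, held the octamer, and HIST3H2A and the H1 and H4 genes shown did not. In windows from 250 bases before to 50 bases after the start, a RefSeq promoter was found for 66 members. The octamer was present in 14 of 18 H2B, 11 of 16 H2A and 1 of 13 H3 promoters and in 0 of 6 H1 and 0 of 13 H4 promoters, beside 492 of all 27305 RefSeq promoters. The H3 match was for HIST1H3D, whose window (chr6:26199244-26199543) was the same as that of the H2A gene HIST1H2AD. That window was therefore counted for both genes and is not evidence of an octamer in a promoter of H3 alone. CCAAT was present in 56 of the 66 (35.7% of all promoters) and in 3 of 13 H4 promoters, and TATAAA in 44 of the 66 (12.0% of all promoters). These matches describe the letters in the window and are no evidence of binding.

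The targeted gene was lower in the libraries labelled as knockdown. CNOT7 (ENSG00000198791) was at 169.1, 191.1 and 175.8 CPM (the usual scaling of counts to library size, here with TMM factors) in the control libraries and 43.4, 47.2 and 38.6 CPM in the knockdown libraries. The log2 fold change of knockdown over control was -2.05 (SE 0.073, adjusted p = 2.64e-12, from the quasi-likelihood test of edgeR adjusted over all genes by the Benjamini-Hochberg procedure and called the edgeR adjusted p below, with a threshold of 0.05). The control libraries held 23788451 to 25982493 counts in all and the knockdown libraries 27523812 to 29104872. The epithelial markers KRT8, KRT18, KRT19, EPCAM, CDH1 and CLDN7 passed the filter, as did CDX2, VIL1, CDH17 and GPA33 of the 6 intestinal markers. KRT8 and KRT19 fell while CDH1, VIL1 and GPA33 rose (over all genes tested, 11.9% fell and 13.3% rose). GPA33 had 1, 4 and 0 counts in the control and 16, 18 and 13 counts in the knockdown libraries. It passed the filter through the knockdown libraries alone, so it had to be higher there. The 10 markers of blood, endothelium, fibroblasts, hepatocytes and melanocytes summed to 10.9 to 13.2 CPM in the control and 12.4 to 14.6 CPM in the knockdown libraries, mostly from COL1A1, and DCN was at 0 counts in every library.

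With CNOT7 knockdown, the clustered histone genes that passed the test were lower in all subtypes, with a single exception in H2A. Of the 71 genes, 25 passed the filter, which required about 0.374 CPM in at least 3 libraries, and 11 of the 25 fell (11.9% of all 17574 genes tested fell) while 1, HIST3H2A, rose (13.3% of all genes tested rose). All but HIST3H2A had a log2 fold change below 0, and the median over the 25 was -0.52, beside 0.0039 over all genes tested. A fall of at least 1 on the log2 scale was called for 9 of the 25 (0.831% of all genes tested), and the groups did not overlap in 14 of the 25 (38.8% of all genes tested). A member that passed the filter through the control libraries alone had to be lower in the knockdown, as was the case for HIST2H2AA3. Among the 22 members over the minimum in all libraries of both groups, 10 fell and 1 rose, with a median of -0.50. In bulk RNA, fewer cells expressing a gene and less RNA per cell cannot be told apart.

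**Figure D1:**
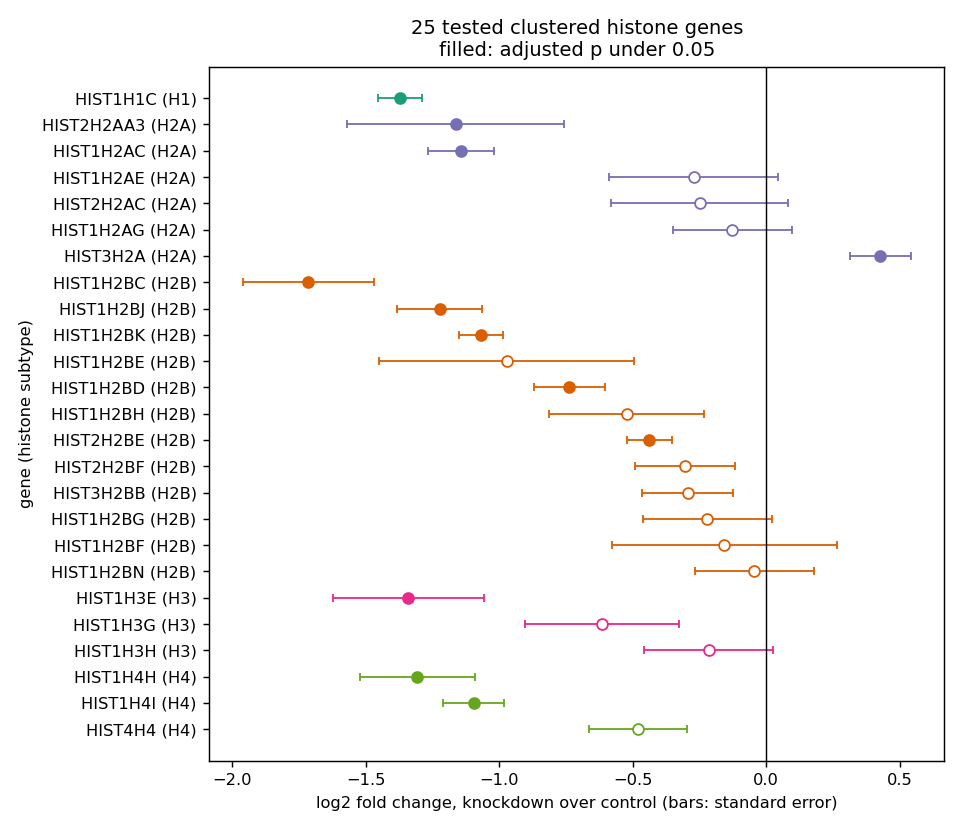
Log2 fold change of knockdown over control for the 25 tested clustered histone genes, grouped by subtype, with the standard error as bars and filled points for genes with an adjusted p under 0.05. The 11 filled points to the left of 0 belong to all 5 subtypes, and HIST3H2A is the only point to the right of 0.

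The total level of the clustered histone transcripts was also lower. Summed over all 71 genes, the level was 214.2, 220.1 and 218.5 CPM in the control libraries and 116.7, 122.3 and 130.1 CPM in the knockdown libraries, so the mean went from 217.6 ± 3.06 to 123.1 ± 6.75 CPM (SD, n = 3), or 56.6% of the control. Every knockdown library was below every control library. No test was made on sums, since a sum over chosen genes is a score.

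Among the linker histones, HIST1H1C (ENSG00000187837, chr6:26055787-26056428), which encodes H1.2, was the only gene that passed the filter. It had 1366, 1222 and 1393 counts in the control and 561, 523 and 698 counts in the knockdown libraries, which are 53.2, 52.5 and 55.6 CPM against 19.9, 19.0 and 23.4 CPM. The control libraries lay close together, and the highest knockdown library was far below the lowest control library. The log2 fold change was -1.37 (SE 0.082, edgeR adjusted p = 2.99e-09). HIST1H1C held 98.9% of the summed H1 level, which went from 54.4 ± 1.48 to 21.0 ± 2.46 CPM (SD, n = 3).

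The H2A genes did not move as a block. HIST1H2AC (ENSG00000180573) had 13.9, 16.7 and 14.8 CPM in the control and 5.61, 7.90 and 7.02 CPM in the knockdown libraries. The groups were well apart, and the gene fell with a log2 fold change of -1.14 (SE 0.12, edgeR adjusted p = 3.29e-06). HIST2H2AA3, at 0.545, 0.688 and 0.598 CPM against 0.284, 0.326 and 0.201 CPM, was lower too (log2 fold change -1.16, SE 0.41, edgeR adjusted p = 0.0445). It rested on only 14 to 16 counts in the control and 6 to 9 in the knockdown libraries, every 100-base window of its transcript also occurred in its copy HIST2H2AA4, so its reads could not be told from those of the copy, and the call was lost when any of the 6 libraries was left out (edgeR and DESeq2 adjusted p of 0.0218 to 0.165 over the alternatives).

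HIST3H2A (ENSG00000181218, chr1:228456979-228457873) was the H2A gene with the highest level per kilobase and the only member that rose. It had 11.0, 9.29 and 10.9 CPM in the control and 13.5, 12.4 and 16.1 CPM in the knockdown libraries. All knockdown libraries were above all control libraries. The log2 fold change was 0.43 (SE 0.11, edgeR adjusted p = 0.0107), and without knockdown replicate 3, the highest library, it was 0.31 with an adjusted p of 0.065. HIST1H2AE, HIST2H2AC and HIST1H2AG had log2 fold changes of -0.27, -0.25 and -0.13 with overlapping groups and did not pass the test.

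The H2B genes gave the largest number of calls, and also had the most tested genes. Of 12 tested, 5 fell, beside 11 of the 25 tested over all members and 11.9% of all genes tested. HIST1H2BK (ENSG00000197903, chr6:27146418-27146798) had the highest level per kilobase of all members, 114.2 CPM per kilobase in the control and 54.5 in the knockdown. Its libraries held 44.9, 44.1 and 41.5 CPM in the control and 18.4, 21.1 and 22.7 CPM in the knockdown, and the groups were far apart. The log2 fold change was -1.07 (SE 0.083, edgeR adjusted p = 6.32e-08). Of the 100-base windows of its transcript, 28.4% also occurred in transcripts of 2 other annotated genes, so part of its reads could have been split between them.

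HIST1H2BJ, an H2B gene close by on chromosome 6, had 8.17, 9.20 and 9.18 CPM in the control and 4.79, 2.83 and 3.73 CPM in the knockdown libraries. The lowest control library was above the highest knockdown library, and the log2 fold change was -1.22 (SE 0.16, edgeR adjusted p = 2.10e-05). HIST1H2BC had the most negative fold change of all members, with 2.22, 2.49 and 2.23 CPM against 0.568, 0.797 and 0.739 CPM (log2 fold change -1.72, SE 0.25, edgeR adjusted p = 6.43e-05). It rested on 56 to 58 counts in the control and 16 to 22 in the knockdown libraries, so its size was less precise than that of HIST1H2BK.

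HIST1H2BD, with 7.28, 9.16 and 8.38 CPM against 4.36, 5.04 and 5.44 CPM, fell by 0.74 on the log2 scale (SE 0.13, edgeR adjusted p = 5.60e-04). HIST2H2BE, which gives a long transcript with 1729 bases annotated past its stem-loop, had 23.7, 25.7 and 23.8 CPM in the control and 16.5, 18.8 and 18.6 CPM in the knockdown libraries. Its groups did not overlap either, but its log2 fold change of -0.44 (SE 0.085, edgeR adjusted p = 0.00102) was closer to 0 than that of the 4 H2B genes of HIST1 that fell. The other 7 tested H2B genes ranged from -0.97 for HIST1H2BE to -0.04 for HIST1H2BN and did not pass the test, and 28.2% of the HIST1H2BE model overlapped a gene on the opposite strand. The summed H2B level went from 99.7 ± 2.47 to 58.3 ± 3.04 CPM (SD, n = 3), with HIST1H2BK as 40.7% of the sum over all libraries.

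H3 transcripts were scarce in these libraries. HIST1H3E was the only H3 gene that passed the test, with 1.60, 1.68 and 1.92 CPM in the control and 0.816, 0.761 and 0.470 CPM in the knockdown libraries. The groups did not overlap, and the log2 fold change was -1.34 (SE 0.28, edgeR adjusted p = 0.00204). HIST1H3H, the H3 gene with the highest level per kilobase, had 1.67, 2.19 and 2.47 CPM against 2.13, 2.10 and 1.24 CPM. Its groups overlapped and it did not pass the test (log2 fold change -0.21, SE 0.24, edgeR adjusted p = 0.567). HIST1H3G, at -0.61, did not pass either (edgeR adjusted p = 0.134). The summed H3 level was 6.44 ± 0.807 CPM in the control and 4.45 ± 0.907 CPM in the knockdown (SD, n = 3).

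Of the H4 genes, HIST1H4I and HIST1H4H fell. HIST1H4I (ENSG00000276180) had 15.4, 16.7 and 16.1 CPM in the control and 6.28, 8.70 and 7.55 CPM in the knockdown libraries (log2 fold change -1.10, SE 0.12, edgeR adjusted p = 2.41e-06). HIST1H4H had 3.70, 3.65 and 3.71 CPM against 1.17, 2.07 and 1.24 CPM (log2 fold change -1.31, SE 0.21, edgeR adjusted p = 2.35e-04). Both had groups far apart, with knockdown replicate 2 the highest of its group. HIST4H4, the only gene of its cluster, had 3.85, 4.13 and 2.99 CPM in the control and 2.87, 2.14 and 2.82 CPM in the knockdown libraries. Its groups did not overlap, but control replicate 3 was close to the knockdown libraries, and the log2 fold change of -0.48 did not pass the test (SE 0.18, edgeR adjusted p = 0.0641), though it did under 3 of 14 alternatives. The summed H4 level went from 24.8 ± 0.578 to 13.1 ± 1.36 CPM (SD, n = 3), and HIST1H4I was 62.3% of it.

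**Figure D2:**
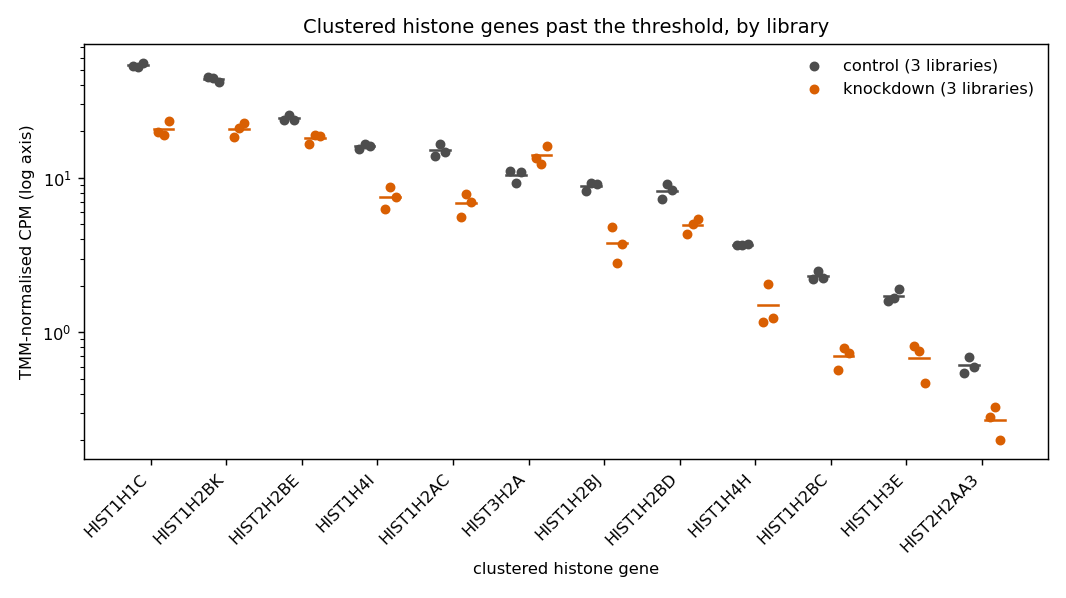
TMM-normalised CPM on a log axis in each of the 3 control and 3 knockdown libraries for the 12 clustered histone genes with an adjusted p under 0.05, with group means as bars. In 11 genes every knockdown library lies below every control library, from HIST1H1C at 53.8 CPM to HIST2H2AA3 at 0.610 CPM in the control, and in HIST3H2A every knockdown library lies above.

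By cluster, the difference was largest in HIST1. The HIST1 sum went from 170.3 ± 2.99 to 81.3 ± 4.30 CPM (SD, n = 3), 47.7% of the control, with HIST1H1C as 29.6% of the sum over all libraries. Of its 18 tested genes, 9 fell (11.9% of all genes tested fell). The HIST2 sum went from 29.9 ± 1.07 to 22.6 ± 1.67 CPM, with 2 of 4 tested genes lower and HIST2H2BE as 80.7% of the sum. The HIST3 sum went the other way, from 13.7 ± 0.846 to 16.6 ± 1.85 CPM, and HIST3H2A was 80.6% of it. HIST3H2BB, the other tested gene of HIST3, had 2.996, 3.05 and 3.03 CPM in the control and 2.59, 2.46 and 2.35 CPM in the knockdown libraries. Its groups did not overlap, but its log2 fold change of -0.29 did not pass the test (SE 0.17, edgeR adjusted p = 0.226). The difference between clusters was not tested.

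**Figure D3:**
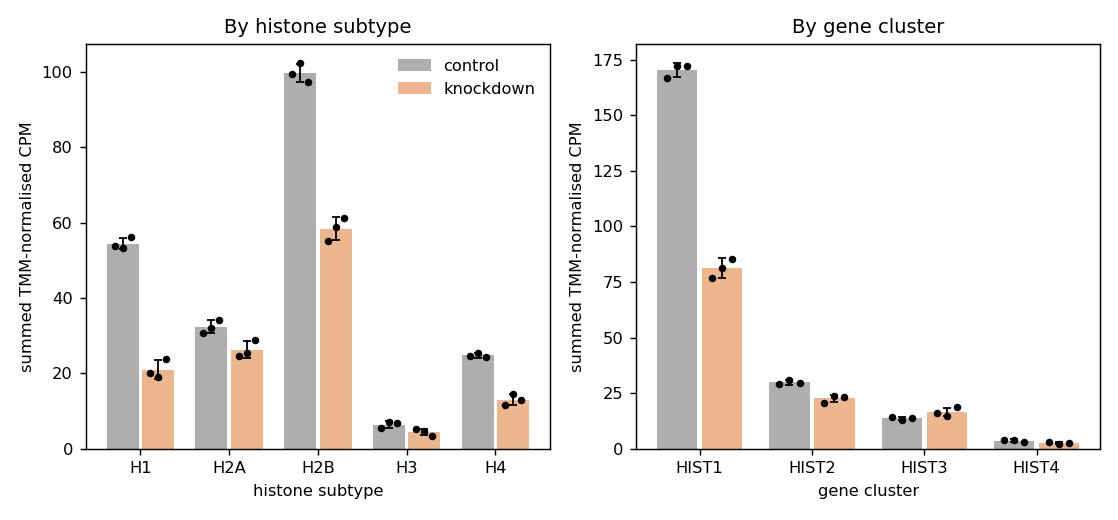
Summed TMM-normalised CPM of the 71 clustered histone genes by subtype (left) and by cluster (right), with bars for group means, error bars for the SD and points for the 3 libraries of each group. The H1 bar drops from 54.4 to 21.0 CPM and the HIST1 bar from 170.3 to 81.3 CPM, while the HIST3 bar is higher in the knockdown.

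HIST1 is split by a stretch of 840259 bases without a member. The part before it, with 34 genes of which 12 were tested and 6 fell, summed to 92.9 ± 2.45 CPM in the control and 41.1 ± 2.13 CPM in the knockdown (SD, n = 3). The part after it, with 21 genes of which 6 were tested and 3 fell, summed to 77.5 ± 0.899 and 40.2 ± 2.19 CPM. Over all genes tested, 11.9% fell. Lower levels were thus found on both sides of the gap, with log2 ratios of -1.18 and -0.95. Each ratio rests in large part on 1 gene. HIST1H1C went from a mean of 53.8 to 20.8 CPM in the part before the gap. HIST1H2BK went from 43.5 to 20.7 CPM in the part after it.

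Many H2A and H2B genes lie head to head and share the DNA between their starts. With gene starts at most 500 bases apart, 12 head-to-head pairs of members of any subtype were found, made up of 23 genes. Among them was the H3 gene HIST1H3J with the H2B gene HIST1H2BO, which was also paired with HIST1H2AM. In 5 of the 12 pairs both genes were tested. These pairs were chosen by position, after the values of the members had been seen. HIST1H2BC and HIST1H2AC, with starts 219 bases apart, both fell. In the pair of HIST1H2BJ and HIST1H2AG, with starts 292 bases apart, HIST1H2BJ fell whereas HIST1H2AG was at 2.02, 3.05 and 4.19 CPM against 2.94, 2.39 and 3.12 CPM, with overlapping groups. In the pair of HIST3H2A and HIST3H2BB, with starts 234 bases apart, HIST3H2A rose and HIST3H2BB had a log2 fold change of -0.29.

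The ratio within each pair gives the difference between the partners in the same library. The log2 ratio of HIST1H2BJ over HIST1H2AG was 2.01, 1.59 and 1.13 in the control and 0.70, 0.24 and 0.26 in the knockdown libraries, a difference of -1.18. The log2 ratio of HIST3H2A over HIST3H2BB was 1.88, 1.61 and 1.84 against 2.38, 2.33 and 2.77, a difference of 0.72, and that of HIST1H2BC over HIST1H2AC differed by -0.58. In these 3 pairs the groups did not overlap, and each had an exact two-sided permutation p of 0.1, the smallest that 3 against 3 libraries allow, or 0.167 after Benjamini-Hochberg adjustment over the 5 pairs. For HIST2H2BE over HIST2H2AC the difference was -0.19 (exact permutation p = 0.5) and for HIST1H2BG over HIST1H2AE it was 0.0027 (exact permutation p = 1), with overlapping groups in both.

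**Figure D4:**
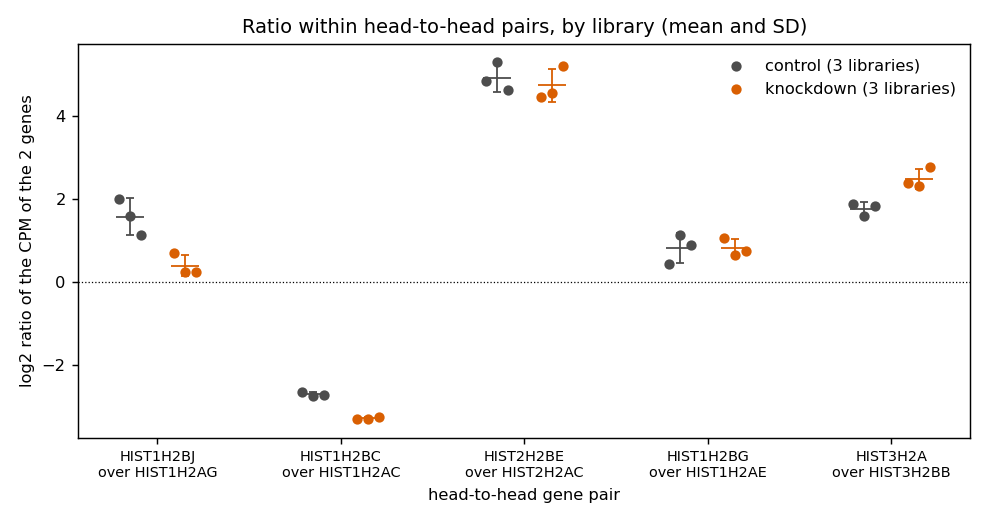
Log2 ratio of the CPM of the genes of each tested head-to-head pair in the 3 control and 3 knockdown libraries, with the mean and SD of each group. The ratio of HIST1H2BJ over HIST1H2AG is lower and that of HIST3H2A over HIST3H2BB higher in every knockdown library, whereas the groups overlap for HIST2H2BE and HIST1H2BG.

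The members that could be tested differed in their gene models from those that could not. The tested members had models of 381 to 5477 bases (median 1534), and the 46 others had models of 297 to 1929 bases (median 411). A stem-loop within 100 bases after the last coding base was present in 30 models. Of these, 21 went on for more than 200 bases past it, and 16 of these 21 were tested. Stem-loops elsewhere in a model were left out: that of HIST2H2BF, with 2707 model bases past it, and another in HIST1H2BN, with 4131. Both lie before the last coding base taken over all transcripts. HIST1H2BN was counted through a stem-loop with 5 model bases past it, at chr6:27865778-27865793. This element lies just past the end of the H2A gene HIST1H2AL (chr6:27865355-27865747) on the same strand. It may therefore belong to HIST1H2AL rather than to HIST1H2BN. HIST2H2BF and HIST1H2BN were tested and were not called. Among the 11 genes that fell, 7 had a stem-loop in the model, and their models went on for 35 to 1729 bases past it. Of 9 tested genes with a model under 1000 bases, 6 fell and 1 rose, and of 16 with a longer model, 5 fell. Over all genes tested, 11.9% fell and 13.3% rose. The octamer was present in the promoters of 5 of the 11 genes that fell and of 8 of the 14 other tested genes.

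The 46 members that were not tested had few counts. At 0 counts in every library were 11 members. For 7 of them this allows up to 0.101 to 0.129 CPM in a library (a limit of 3 counts, covering counting error only). The other 4, HIST1H3D, HIST1H2AD, HIST2H3PS2 and HIST1H2AK, lie mostly inside another annotated gene, so a count of 0 was taken to set no limit on their level. For HIST1H3D, HIST1H2AD and HIST2H3PS2 that gene is on the same strand, so their reads were ambiguous. HIST1H2AK is overlapped only on the opposite strand, so its reads were ambiguous only if strand was ignored in counting, which is not known. Of the 46, 16 had over 50% of their 100-base windows in another gene. The highest mean levels among the 46 were 0.542 CPM for HIST2H2AA4 in the control and 0.496 CPM for HIST2H4B in the knockdown. Together they summed to 5.18 ± 0.246 CPM in the control and 4.09 ± 0.388 CPM in the knockdown (SD, n = 3), with 21 lower and 14 higher by their means. Whether poly(A) selection was used for the libraries is not given in the sources used here. Among 16 names of other RNAs without a poly(A) tail, such as RN7SK and the U snRNAs, RN7SL2 alone passed the filter, at 2.84 ± 1.68 CPM in the control and 2.46 ± 0.813 CPM in the knockdown (SD, n = 3), and did not pass the test (log2 fold change -0.21, edgeR adjusted p = 0.693). RMRP was listed as ENSG00000269900 and ENSG00000277027, which overlap on the same strand, so its reads were ambiguous. Overlap and shared sequence were not examined for the other names, so their low counts do not show that these RNAs were absent.

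The variant histone genes, which lie outside the clusters, showed smaller differences in both directions. Of 19 listed, 11 were tested, of which 5 fell and 1 rose, with a median log2 fold change of -0.16. Over all genes tested, 11.9% fell and 13.3% rose. H2AFX, whose product is phosphorylated at DNA breaks, was at 304.0, 267.1 and 316.1 CPM in the control and 219.0, 205.8 and 233.6 CPM in the knockdown libraries, with no overlap (log2 fold change -0.43, SE 0.065, edgeR adjusted p = 1.08e-04). H2AFX is known to give both stem-loop and polyadenylated transcripts. The H2A.Z genes H2AFZ (-0.29) and H2AFV (-0.16), the H3.3 gene H3F3B (-0.25) and the macroH2A gene H2AFY (-0.21) also fell, and the call of H2AFV held under 9 of 14 alternatives.

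H1F0, which encodes the linker histone H1.0 of resting and differentiated cells, rose. It had 422.0, 388.1 and 406.6 CPM in the control and 491.0, 471.0 and 522.7 CPM in the knockdown libraries (log2 fold change 0.29, SE 0.054, edgeR adjusted p = 7.64e-04). Its groups did not overlap, so HIST1H1C and H1F0 moved in opposite directions. CENPA (-0.17), H2AFY2 (-0.06), H3F3A (0.02), H2AFJ (0.14) and H1FX (0.19) did not pass the test.

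Of the 8 genes listed for histone transcription, 3 fell (11.9% of all genes tested fell). CCNE2, a cyclin of the G1 to S transition, fell from 10.4 ± 0.640 to 6.78 ± 0.824 CPM (SD, n = 3, log2 fold change -0.61, edgeR adjusted p = 9.86e-04), and CASP8AP2 (-0.26) and GON4L (-0.18) fell by less. The call of GON4L held under 7 of 14 alternatives. NPAT, the coactivator of the histone locus body, was at 75.1 ± 7.94 CPM in the control and 72.3 ± 10.7 CPM in the knockdown (SD, n = 3), with overlapping groups and a log2 fold change of -0.05 (edgeR adjusted p = 0.718). HINFP, the activator of H4 genes, was at 0.11 (edgeR adjusted p = 0.299). The median over the list was -0.09.

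SLBP, the protein that binds the stem-loop, fell slightly. It had 113.5, 121.4 and 120.01 CPM in the control and 98.1, 112.9 and 95.5 CPM in the knockdown libraries. Knockdown replicate 2 was just below the lowest control library, and the log2 fold change was -0.21 (SE 0.066, edgeR adjusted p = 0.0254), a call that held under 9 of 14 alternatives. Of the 10 genes for processing of histone 3′ ends, SRRT (-0.42) and CPSF2 (-0.19) also fell, whereas LSM11, a subunit of the U7 snRNP, rose from 9.91 ± 0.979 to 14.0 ± 0.677 CPM (SD, n = 3, log2 fold change 0.49, edgeR adjusted p = 0.00193). Among the 8 genes tested for histone mRNA decay, EXOSC10 (-0.21) fell and TUT7 (0.19) rose, and ERI1, UPF1 and LSM1 did not pass the test. Over all genes tested, 11.9% fell and 13.3% rose, so 1 of 8 each for decay is close to these shares. For 3′ processing, 3 of 10 fell and 1 of 10 rose.

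Of 20 histone chaperone genes, 5 fell, 1 rose and the others did not pass the test. Over all genes tested, 11.9% fell and 13.3% rose. Those that fell were CHAF1A (-0.27), a subunit of CAF-1, ASF1B (-0.26), SUPT6H (-0.24), HJURP (-0.23) and UBN1 (-0.22). NAP1L1 rose (0.24), and the median was -0.10. The summed chaperone level overlapped between the groups. Of 42 S-phase genes tested, 22 fell, with a median of -0.19. By edgeR and by DESeq2, 0 rose, and 0 had a positive value at an unadjusted p under 0.05. CCNE2, CLSPN (-0.60), UHRF1 (-0.52) and E2F8 (-0.49) had the most negative values. The S-phase list summed to 5062 to 5238 CPM in the control and 4342 to 4591 CPM in the knockdown libraries, with no overlap. The part of the S-phase genes, and of any change in the share of cells in S phase, in the differences of the clustered histone genes was not tested. CCNE2, CASP8AP2, SLBP, NASP and CHAF1B stand in several of these lists and were counted in each.

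**Figure D5:**
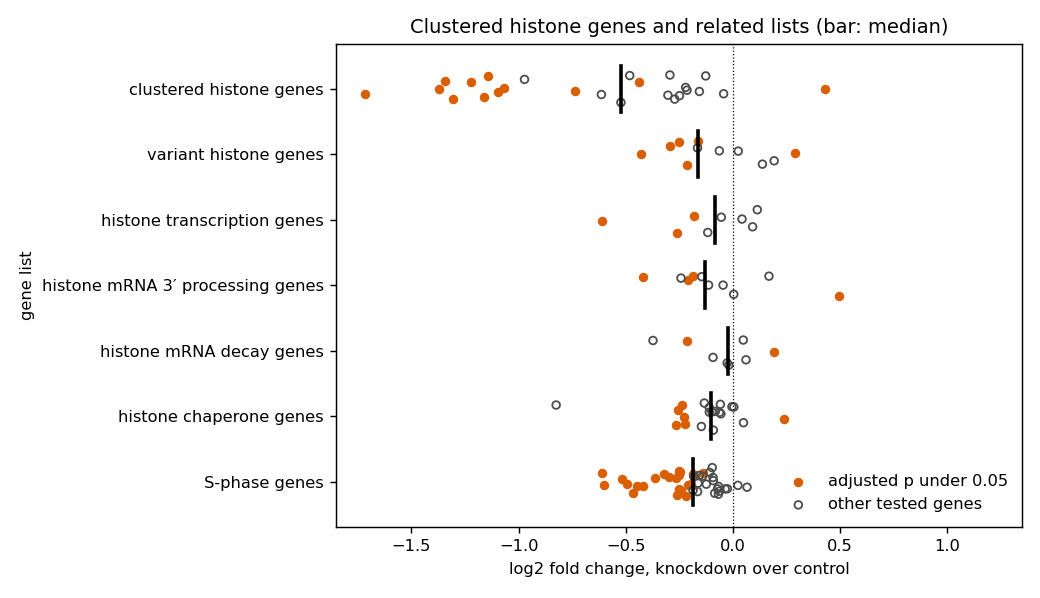
Log2 fold change of knockdown over control for the tested clustered histone genes and 6 related lists, with filled points for an adjusted p under 0.05 and a bar at the median of each list. The median of the clustered histone genes lies at -0.52, and those of the other lists lie between -0.19 and -0.02.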

How the data were processed

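The authors extracted total RNA with TRIzol, built libraries with the NEBNext Ultra RNA Library Prep kit, and deposited raw read counts per gene for 6 libraries, 3 per group. The submitters' processing notes list CASAVA 1.8, fastp, HISAT2 2.0.5, featureCounts 1.5.0-p3 and DESeq2 1.20.0 on GRCh38. The strand setting is not given in the sources used here, and without strand, reads of overlapping opposite genes cannot be told apart. All 71 model lengths equalled those of GENCODE 29.

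The members and lists were chosen with earlier results of these data known. The test was that of edgeR 4.0.16 (R 4.3.3): filterByExpr kept 17574 of 58735 genes, TMM factors were set, and glmQLFit and glmQLFTest compared the groups, with Benjamini-Hochberg adjustment over all genes kept and no minimum fold. The SE was taken from the fold change and the F statistic. The step was tested on simulated data. Exact permutation tests used scipy 1.17.1. Libraries of a group were compared in pairs, and none was a copy of another.

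The genes named were CNOT7, all members past the threshold, the member with the highest CPM per kilobase of each subtype and the 5 highest of all, tested members of HIST3 and HIST4, tested variant histone genes, NPAT, HINFP and SLBP, and up to 4 called genes in each other list. Others were chosen after their values were seen. Alternatives were DESeq2 1.42.0, RLE factors, no filter, a filter of 10 counts or more per library, a replicate block, loess removal (span 0.3) of trends with abundance or gene length, protein-coding genes only, a log2 fold change of at least 1 in size, and each library left out in turn.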

Additional observations from a re-analysis of the deposited data

How the results depend on the processing

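No called value changed sign under any alternative, the summed levels moved by less than 1 SD, and 10 of the 12 called members kept the call throughout, apart from the minimum fold below. HIST2H2AA3 was called in 5 of 13 and HIST3H2A in 13 of 14, and the members that fell numbered 10 to 11 when 1 library was left out. Over those fits, 0 to 1 members rose (0 without knockdown replicate 3), as did 1 to 3 variant histone genes. The 3′ processing genes gave 1 to 3 falls and 1 to 2 rises, the decay genes 0 to 1 of each, and the S-phase genes 14 to 28 falls (14 without knockdown replicate 1, 28 without knockdown replicate 2). A minimum log2 fold change of 1 left 0 members that rose, and 0 falls and 0 rises in the variant, transcription, 3′ processing, decay, chaperone and S-phase lists, since their changes are smaller. Without the filter, 2 variant genes rose and 2 decay genes fell. With the trend with abundance removed, 12 members fell and the 3′ processing genes gave 1 fall and 2 rises. The single rise among the decay genes, TUT7, went to 0 with DESeq2, RLE factors, no filter or the trend with gene length removed. HIST4H4 was called as lower in 3 of 14, with the block, with the trend with abundance removed and without control replicate 3. Calls held in 9 of 14 for CPSF2, 10 for EXOSC10 and UBN1, and 5 for TUT7. The cause of these changes was not tested.

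Between control and knockdown libraries of the same replicate number, the correlations of deviations were 0.046, 0.24 and -0.0077. Libraries of different numbers were not compared, so these values cannot decide whether the numbers pair the libraries. With the number as a replicate block, 3306 genes fell and 3202 rose over the whole table, against 2095 and 2329 without it. With the block, 12 members fell and 2 variant genes rose, 5 of the 3′ processing genes fell and 2 rose, and 2 decay genes fell.

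The 46 members that were not tested had few counts, and 16 of them shared over 50% of their windows with another gene. Their low counts do not show that these genes were silent or unchanged, and the cause was not tested.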

Other observations

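Among the 19 pseudogenes named after the histone clusters, 2 passed the filter, both in HIST2. HIST2H2BC was at 7.68 ± 1.13 CPM in the control and 8.63 ± 0.253 CPM in the knockdown (SD, n = 3), with a log2 fold change of 0.17 that did not pass edgeR's test (adjusted p = 0.352). HIST2H2BD was at 2.998 ± 0.429 and 3.48 ± 0.831 CPM, with a log2 fold change of 0.21 (edgeR adjusted p = 0.476). They overlap on opposite strands of chromosome 1, and the HIST2H2AA3 and HIST2H2AA4 genes described above lie at either side of them.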
